A study of Mus musculus with 311 samples.

Results

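ATP-binding cassette (ABC) transporters are membrane proteins that use ATP to move lipids, bile components, drugs, conjugates and peptides across membranes. In the liver they load cholesterol and phospholipid onto lipoproteins, export conjugated waste into bile or blood and carry fatty acids into peroxisomes, while members of subfamilies E and F lack membrane domains and act on ribosomes. The genes described here are those whose symbol is Abc, a letter from a to g and a number, leaving out the sterol exporters Abcg5 and Abcg8, the bile salt pump Abcb11 and the phospholipid floppase Abcb4. Of 39 such symbols on the platform 4 were left out and 1, Abca4, was measured on fewer than 95% of arrays, which left 34 genes of 11387 measured. Subfamily A gave 13 genes, B 4, C 7, D 3, E 1, F 2 and G 4. Each gene was read from 1 probe, the probe with fewest missing values.

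The samples were livers of 311 F2 mice of both sexes from a cross of C57BL/6J and C3H/HeJ, both ApoE null, so that every animal lacked apolipoprotein E, the ligand that clears remnant lipoproteins. The animals ate a high fat "Western" diet from 8 to 24 weeks of age. C3H/HeJ is known to carry a defective Abcc6 allele. Each array set total RNA of 1 animal (Cy3) against a pool made of equal portions of RNA of the samples (Cy5), and all arrays belong to 1 labelled group, with no sex, genotype or phenotype given per animal. Values are log10 ratios of sample over pool, so they rank animals for a gene and do not compare levels between genes.

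Because sex-linked transcripts fall into separate clusters, spread, correlations and distribution shapes (the last also over all 311 arrays) were measured within 2 array sets. The Eif2s3y-low set held the 156 arrays below -0.5 on a probe of Eif2s3y, a Y-linked translation factor subunit (from -1.76 to -0.875). The Eif2s3y-high set held the other 155 arrays (from -0.219 to 0.527). These sets come from a measured value and not from a label, so differences in level between them are descriptions without a test. Each animal had 1 array, so differences among animals and measurement error cannot be told apart. Of the deposited values 0.745% were missing. The median of an array ranged from -0.0218 to 0.0172 and its SD from 0.0658 to 0.206. In 127 of 48205 pairs of arrays r was below -0.3, the lowest being -0.432. No array was turned, because the labels give the dyes. The labels do not say which dye is the numerator, and the sign was read from the values. Ratios to a pool of livers cannot show that the defining hepatocyte genes were present. On 10 arrays (6 Eif2s3y-low and 4 Eif2s3y-high) a pancreas or skeletal muscle gene was 10-fold or more over the pool.

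The ABC genes that differed most in level between the array sets were Abcg2, Abcd2 and Abcb1a. Their medians lay 1.5-fold or more apart, which makes 3 of 34 genes (8.82%), against 2.02% of all genes. Abcg2, which was the higher in Eif2s3y-high arrays, belongs to a direction held by 1.11% of all genes, and Abcd2 and Abcb1a to the opposite direction, held by 0.913%. Abcg2 encodes the breast cancer resistance protein, an exporter of drugs, urate and conjugates at the canalicular membrane. Its log10 ratio ran from -0.49 over a median of -0.25 to 0.02 in Eif2s3y-low arrays, and from -0.26 over a median of 0.15 to 0.38 in Eif2s3y-high arrays. The medians differed by 0.40, or 2.51-fold. The ranges overlapped from -0.26 to 0.02, with 1 Eif2s3y-high array at -0.26 and the next lowest at -0.0064, while 0 of 156 Eif2s3y-low arrays lay above the Eif2s3y-high median, and 1 of 155 Eif2s3y-high arrays lay below the Eif2s3y-low median.

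Abcd2, a peroxisomal transporter of very long chain fatty acyl-CoA, went the opposite way. It ran from -0.24 over a median of 0.23 to 0.54 in Eif2s3y-low arrays (n = 156), and from -0.95 over a median of -0.28 to 0.18 in Eif2s3y-high arrays (n = 152). The difference of medians was -0.50, or 3.18-fold. All 156 Eif2s3y-low arrays lay above the Eif2s3y-high median, and 0 of 152 Eif2s3y-high arrays lay above the Eif2s3y-low median, although the ranges overlapped.

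Abcb1a and Abcb1b, neighbours on chromosome 5, encode the rodent P-glycoproteins, which pump out lipophilic drugs. Abcb1a was the lower in Eif2s3y-high arrays, and Abcb1b the higher. Abcb1a ran from -0.37 over a median of 0.08 to 0.47 in Eif2s3y-low arrays, and from -0.79 over a median of -0.26 to 0.26 in Eif2s3y-high arrays, a difference of -0.34 or 2.19-fold. Abcb1b ran from -0.40 over a median of -0.10 to 0.24 in Eif2s3y-low arrays, and from -0.13 over a median of 0.06 to 0.58 in Eif2s3y-high arrays, a difference of 0.17 or 1.46-fold. For Abcb1a 154 of 156 Eif2s3y-low arrays lay above the Eif2s3y-high median, and for Abcb1b 4 of 154 did. Across animals the pair was not called as varying together: r was -0.0285 in Eif2s3y-low arrays and -0.0770 in Eif2s3y-high arrays (Fisher's z, adjusted p = 0.849 and 0.559). The transcripts are close in sequence, and cross-hybridization of their probes was not tested.

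The upstream sequences of this gene pair are shown because the neighbours went opposite ways between the array sets. They are the 250 bases before each start site from RefSeq (GRCm38.p6), both on the plus strand, at chr5:8566841-8567090 for Abcb1a and chr5:8797897-8798146 for Abcb1b. Capitals mark matches to 4 motifs, each searched on both strands. They were the CCAAT box, with those letters, and the GC box, GGGCGG. The other motifs were the TATA box, TATAAA, and the STAT site, TTCNNNGAA, and no match overlapped another.
Abcb1a: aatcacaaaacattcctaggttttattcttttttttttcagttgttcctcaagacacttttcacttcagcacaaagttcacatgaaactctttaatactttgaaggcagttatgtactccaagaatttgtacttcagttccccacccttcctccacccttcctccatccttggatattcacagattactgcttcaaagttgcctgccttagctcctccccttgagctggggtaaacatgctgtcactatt
Abcb1b: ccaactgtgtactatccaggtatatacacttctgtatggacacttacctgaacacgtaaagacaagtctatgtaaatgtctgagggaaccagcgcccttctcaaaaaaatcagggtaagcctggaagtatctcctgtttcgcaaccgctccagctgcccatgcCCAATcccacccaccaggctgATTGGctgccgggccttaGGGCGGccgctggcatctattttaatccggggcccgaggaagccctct
The Abcb1b window held a CCAAT box on each strand and a GC box 48 to 43 bases before the start, at 52.8% GC. The Abcb1a window, at 40.4% GC, held none of these letters, which says nothing of the factors. Of 32851 promoters of the same length 33.8% held a CCAAT box, 32.7% a GC box, 12.4% a TATA box and 7.02% a STAT site.

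**Figure D1:**
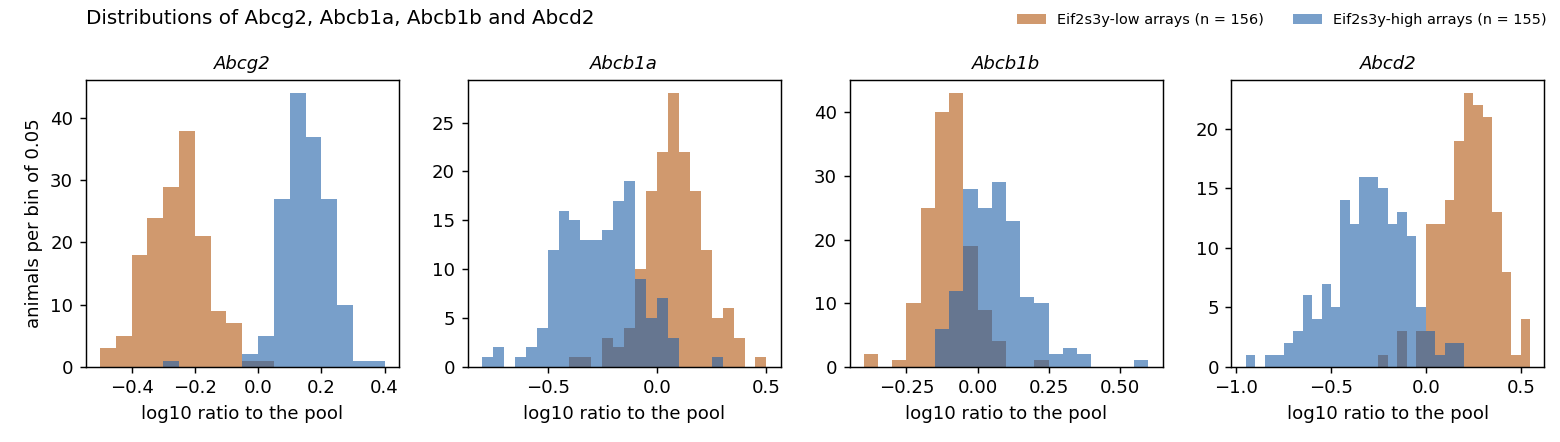
Numbers of animals (vertical axis) by log10 ratio to the pool (horizontal axis, bins of 0.05) for Abcg2, Abcb1a, Abcb1b and Abcd2 in the 156 Eif2s3y-low and 155 Eif2s3y-high arrays. Abcg2 shows separate humps around medians of -0.25 and 0.15, while the other genes overlap more.

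A single Eif2s3y-high animal, F2 number 210, held the lowest Abcg2 value of that set. Its Eif2s3y log ratio was 0.492, its Abcg2 -0.261, its Abcb1b -0.128 and its Abcd2 0.170. Those values of Abcg2, Abcb1b and Abcd2 lie nearer to the Eif2s3y-low medians, while its Abcb1a of -0.378 lies nearer to the Eif2s3y-high median. This animal was chosen after its values were seen.

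All other ABC genes, Abcb1b included, had medians less than 1.5-fold apart. Abcb10, a mitochondrial inner membrane transporter needed for heme synthesis, ran from -0.15 over -0.04 to 0.10 in Eif2s3y-low arrays and from -0.12 over 0.08 to 0.29 in Eif2s3y-high arrays, 1.33-fold apart. Abca8a, a lipid transporter of subfamily A, ran from -0.30 over 0.01 to 0.41 and from -0.36 over -0.12 to 0.51, with the Eif2s3y-low median 1.36-fold higher. Abcg3, a rodent relative of Abcg2 with an atypical ATP-binding domain, ran from -0.19 over 0.03 to 0.24 and from -0.28 over -0.09 to 0.15, with the Eif2s3y-low median 1.30-fold higher. Thus 2 members of subfamily G, Abcg2 and Abcg3, went opposite ways. Ranges overlapped for all 34 genes, and the median size of the difference was 0.0362 over the ABC genes and 0.0193 over all genes. Of the excluded relatives, Abcb4 was 1.32-fold higher in Eif2s3y-high arrays, and Abcg5, Abcb11 and Abcg8 were 1.42-fold, 1.23-fold and 1.14-fold lower. Among the 3 genes past the bound only Abcg2 was measured on all 311 arrays.

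**Figure D2:**
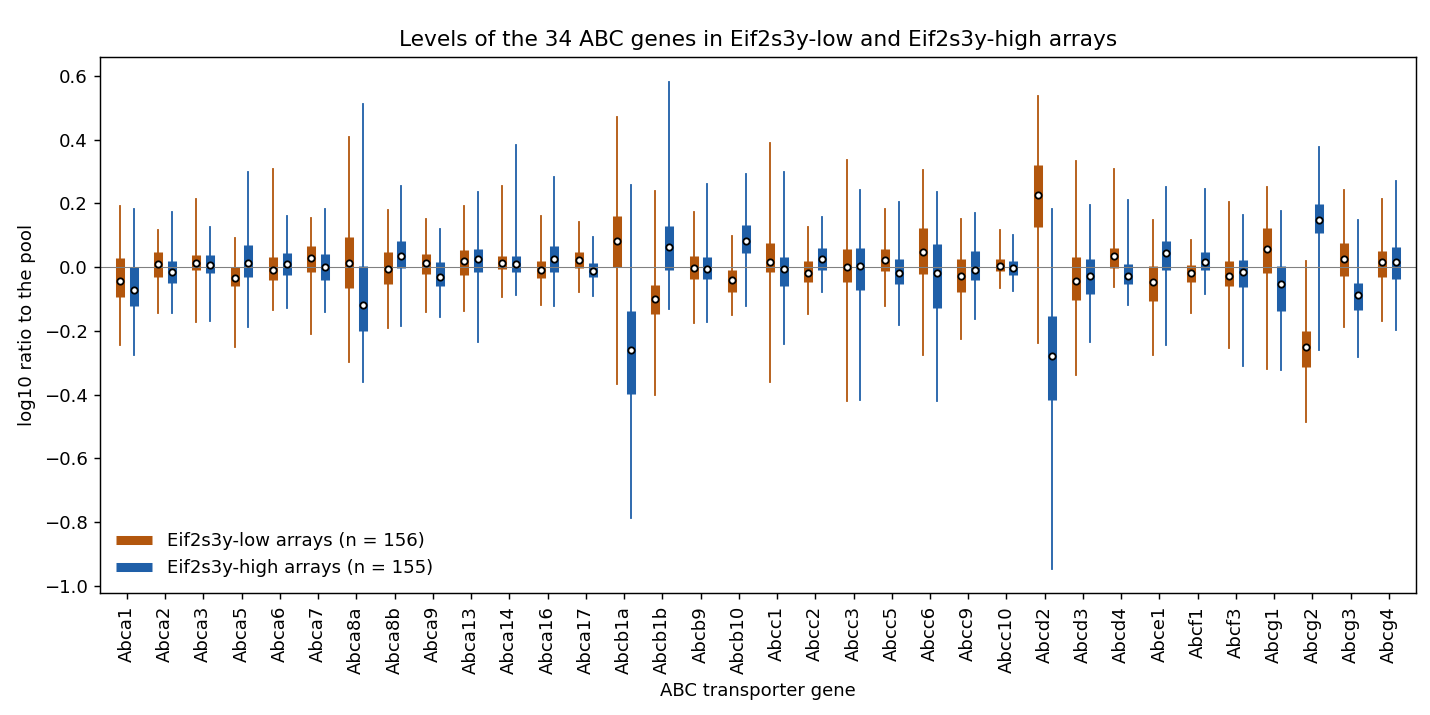
Log10 ratio to the pool (vertical axis) of each of the 34 ABC genes (horizontal axis) in Eif2s3y-low and Eif2s3y-high arrays: thin lines run from the lowest to the highest animal, thick bars cover the middle quartiles and circles are medians. Abcd2, Abcb1a and Abca8a have the longest lines, and the bars of Abcg2, Abcd2, Abcb1a, Abcb1b, Abcb10 and Abcg3 do not overlap between the array sets.

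How far animals differed within an array set was expressed as the SD of a gene over the median SD of all genes in that set, which was 0.0621 (1.15-fold) in Eif2s3y-low and 0.0651 (1.16-fold) in Eif2s3y-high arrays. Of the 34 ABC genes 6 (17.6%) stood at 1.5 or more times the median in both sets, against 16.4% of all genes, which is close to that background. At 2 times there were 2 ABC genes, with 7.25% of all genes past that bound, and at 3 times 0, with 2.64%. The median ABC gene stood at 0.995 times (the lower of both sets) and the median of all genes at 0.938.

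The most variable was Abcd2, at 2.25 times the median SD in Eif2s3y-low and 3.15 times in Eif2s3y-high arrays. Abcb1a stood at 2.18 and 2.73 times, and Abca8a at 1.97 and 2.22 times. Abcc6, the exporter whose loss causes soft tissue calcification, stood at 1.86 and 2.01 times. Its log ratio ran from -0.28 over 0.05 to 0.30 in Eif2s3y-low arrays and from -0.42 over -0.02 to 0.24 in Eif2s3y-high arrays. The ranges overlapped, with 114 of 156 Eif2s3y-low arrays above the Eif2s3y-high median. Abcg1, a cholesterol exporter of macrophages and other cells, stood at 1.68 and 1.61 times, with values from -0.32 over 0.06 to 0.25 and from -0.32 over -0.05 to 0.18. Abcc3, a basolateral exporter of glucuronides and bile acids, stood at 1.61 and 1.56 times, with values from -0.42 over 0.00 to 0.34 and from -0.42 over 0.00 to 0.24. Abcg2 stood at 1.48 times the median SD in Eif2s3y-low and 1.14 times in Eif2s3y-high arrays, under the bound in both.

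Just outside the bound were Abca1, at 1.46 and 1.39 times, and Abcb1b, at 1.29 and 1.70. Abcd3 stood at 1.66 and 1.29, and Abcc1 at 1.53 and 1.2. With the median absolute deviation in place of the SD, the lower multiple was 1.61 for Abca1 and 1.43 for Abcc3, so these genes changed sides of the bound. The steadiest were Abcc10, at 0.519 and 0.509 times, and Abca17, at 0.597 and 0.552. The canalicular conjugate pump Abcc2 was also steady, at 0.781 and 0.770 times, as was the ribosome-associated Abcf1, at 0.735 and 0.733.

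Distribution shapes were compared because alleles in an F2 cross can give animals in ratios of 1:1, 3:1 or 1:2:1. A mixture of normals in such ratios was called where it beat a normal, a Student t and a skew-normal distribution by 10 units of the Bayesian information criterion (BIC). Within Eif2s3y-low arrays 0 of 34 ABC genes were called, against 0.826% of all genes, and within Eif2s3y-high arrays 0 of 34, against 0.773%. A shape in at least 1 set was called for 1.05% of all genes. Nearest to a call within an array set was Abcc2 in Eif2s3y-high arrays, a 3:1 mixture with a margin of 1.61. Over all 311 arrays 1 of 34 genes was called, against 1.58% of all genes. It was Abcg2, as a 1:1 mixture with a margin of 175 and levels 5.18 SD apart. Abcd2 had levels 3.04 SD apart as a 1:1 mixture, but its margin of 6.82 was under 10. Abcg2 was thus called over all arrays and within neither array set.

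Which ABC genes varied together was asked next, by Pearson r across animals within each array set. A pair was called where Fisher's z gave an adjusted p (Benjamini-Hochberg over all 64826191 gene pairs) under 0.05 in both sets with the same sign. Of 561 pairs of ABC genes 72 (12.8%) were called, 47 positive and 25 negative, against 10.7% of all gene pairs (5.87% positive and 4.82% negative). The 10.7% includes pairs without an ABC gene, and single ABC genes were called with 2.57% to 22.0% of all genes. The shares within and between subfamilies were close, with 14 of 115 pairs (12.2%) called within a subfamily and 58 of 446 (13.0%) between subfamilies. Within subfamily A 9 of 78 pairs (11.5%) were called, within B 2 of 6 (33.3%), within C 2 of 21 (9.52%), within G 1 of 6 (16.7%), within D 0 of 3 and within F 0 of 1. At an unadjusted p under 0.05 in both sets, D and F also gave 0 pairs. The count was 18 in the animals with F2 numbers up to the median of 186 and 29 in the others, where fewer arrays left 3.00% and 4.69% of all pairs called, and 15 after removal of 5 principal components (1.46% of all pairs). It was 37 at an adjusted p under 0.01, with 6.29% of all pairs called. Among the 19 ABC genes measured on every array it was 23, with 14.1% of all pairs called.

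**Figure D3:**
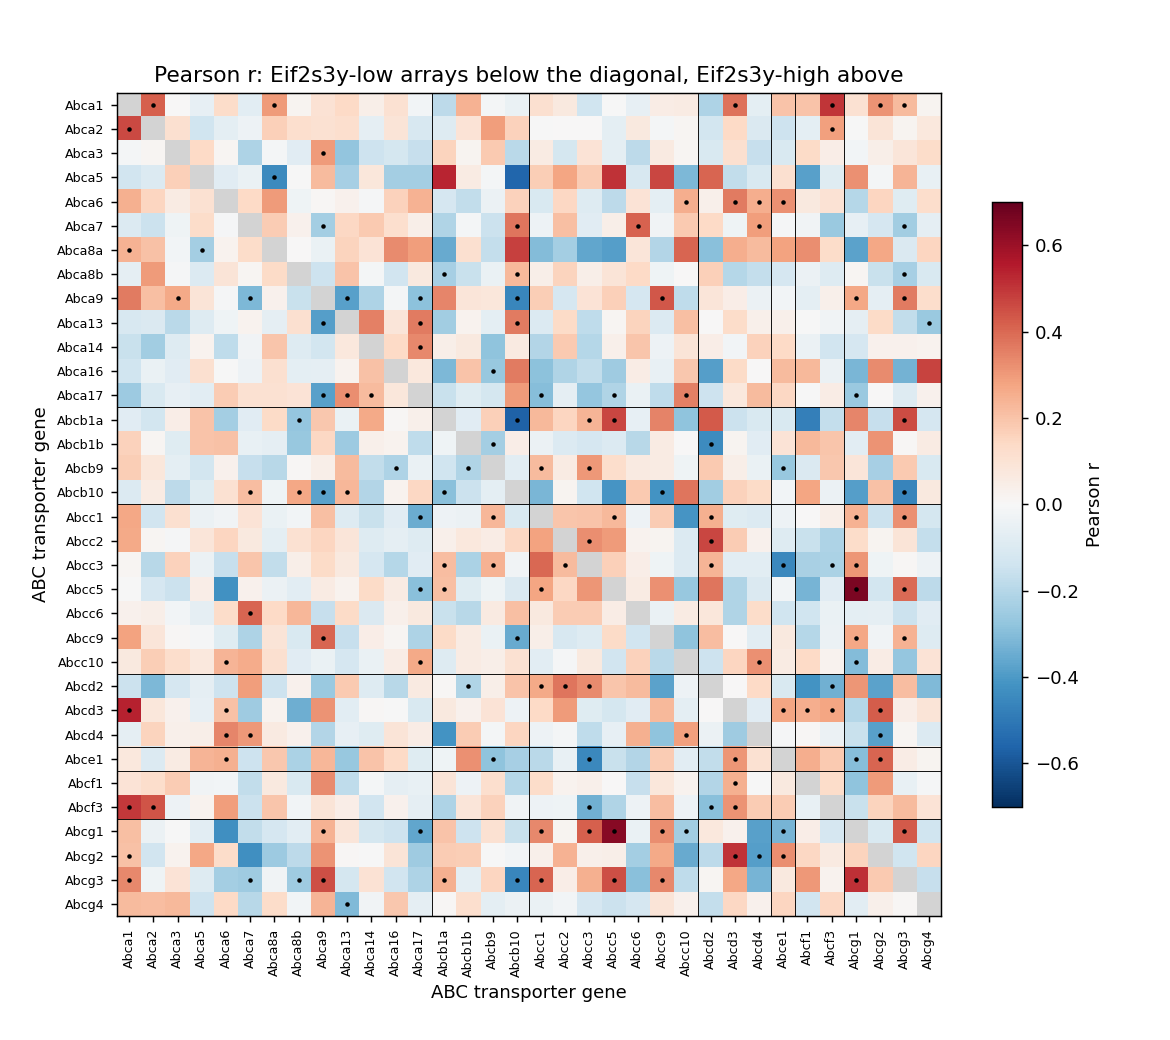
Pearson r between the 34 ABC genes (both axes, ordered by subfamily, with lines between subfamilies), with Eif2s3y-low arrays below the diagonal and Eif2s3y-high arrays above; dots mark the 72 called pairs. Called pairs are scattered over the plot and not gathered in the squares of single subfamilies.

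The strongest pair joined Abcc5, an exporter of cyclic nucleotides and nucleotide analogs, with Abcg1. In Eif2s3y-low arrays r was 0.635 (95% interval 0.531 to 0.720, n = 156) and rho 0.673, and in Eif2s3y-high arrays r was 0.661 (0.562 to 0.742, n = 155) and rho 0.671. The adjusted p was 1.39e-17 and 1.06e-19 by Fisher's z, and without the 2 animals farthest from the median r was 0.624 and 0.673. Permutation tests with 100000 resamples gave 1e-05, the smallest they can give, for r of each named pair in both array sets, and for rho a p between 1e-05 and 0.00095. The named pairs had been picked by r among the called pairs, so small values were bound to follow and add no support. Abcg1 also varied with Abcg3, its relative in subfamily G, with r of 0.511 (0.384 to 0.619) and 0.428 (0.289 to 0.549) and rho of 0.518 and 0.451.

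Abca1, which loads cholesterol and phospholipid onto apolipoprotein A-I, varied with Abcf3, a cytosolic family member linked to translation. Their r was 0.493 (0.364 to 0.604) in Eif2s3y-low and 0.503 (0.375 to 0.613) in Eif2s3y-high arrays, with rho of 0.559 and 0.490. Abca1 varied also with Abca2, an endolysosomal lipid transporter, with r of 0.462 (0.328 to 0.578) and 0.419 (0.279 to 0.541). It was not called with Abcg1 (r of 0.210 and 0.105), the other transporter of cell cholesterol efflux. Abcd3, the abundant peroxisomal transporter also known as PMP70, varied with Abcg2, with r of 0.507 (0.380 to 0.615) and 0.422 (0.283 to 0.544). Abca9 varied with Abcc9, with r of 0.409 (0.269 to 0.532) and 0.434 (0.296 to 0.554).

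Of the 4 negative pairs named only Abca9 and Abca13 lay within a subfamily, with r of -0.386 (-0.512 to -0.244) and -0.380 (-0.509 to -0.235). Abcb10 was opposed to Abcg3, with r of -0.454 (-0.571 to -0.319) and -0.461 (-0.577 to -0.327). Abcc3 was opposed to Abce1, which splits ribosomes after translation, with r of -0.453 (-0.570 to -0.319) and -0.449 (-0.567 to -0.314). The probe used for Abce1 had r of only 0.383 and 0.435 with the other probe of that gene. Abcd4, a lysosomal cobalamin transporter, was opposed to Abcg2, with r of -0.385 (-0.512 to -0.242) and -0.379 (-0.508 to -0.235). Without the 2 farthest animals this last pair stood at -0.319 and -0.251. Of the 10 pairs named, Abcc5 and Abcg1, Abcg1 and Abcg3, Abcd3 and Abcg2, and Abca1 and Abca2 were also called after removal of 5 principal components.

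**Figure D4:**
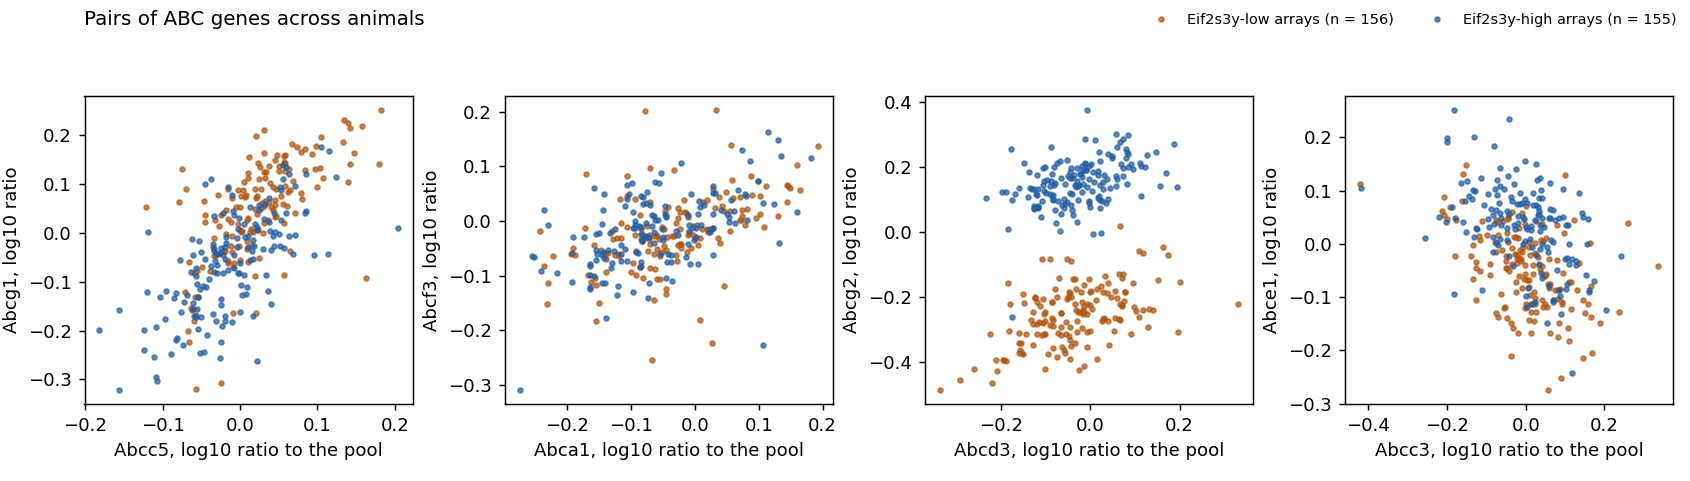
Log10 ratios to the pool of 4 pairs of ABC genes, 1 point per animal, coloured by array set: Abcg1 against Abcc5, Abcf3 against Abca1, Abcg2 against Abcd3 and Abce1 against Abcc3. The clouds slope the same way in both sets, and in the plot of Abcg2 they are shifted apart in level.

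By number of called partners within the family, Abcg3 had 10, Abcg1 9 and Abca9 8, and every ABC gene had at least 1. These 3 were also called with many of all genes, 18.3%, 20.9% and 21.4%. Abcc6 had 1, Abca7, with r of 0.409 and 0.411 (adjusted p = 3.19e-06 and 2.52e-06). Other members were Abca3, the lung surfactant lipid transporter, Abca14 and Abca16, genes of testis, Abcb9, a lysosomal peptide transporter, and Abcg4, a sterol transporter of brain. They stood between 0.649 and 1.08 times the median SD in Eif2s3y-low arrays and between 0.746 and 1.12 times in Eif2s3y-high arrays. Their medians were at most 1.09-fold apart between the array sets. Abca3 was called with Abca9 (r of 0.263 and 0.298), Abca14 with Abca17 (0.220 and 0.336), Abca16 with Abcb9 (-0.214 and -0.264) and Abcg4 with Abca13 (-0.307 and -0.262), while Abcb9 had 5 partners. The probe used for Abcg4 had r of only 0.246 and 0.162 with the other probe of that gene. Whether these genes gave signal above background in liver was not tested.

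Abca5, Abca6, Abca8a, Abca8b and Abca9 form a cluster on chromosome 11, and among their 10 pairs only Abca5 and Abca8a were called, with a negative r of -0.239 and -0.443 (adjusted p = 0.0171 and 2.74e-07), a count near the 10.7% of all gene pairs. Abca8a and Abca8b had r of 0.132 and 0.00159. The gene Fam20a beside them varied with Abca8b (r of 0.543 and 0.445) and was opposed to Abca8a (-0.373 and -0.385). Fam20a, a secretory pathway pseudokinase, was chosen after its values were seen, as were the other neighbours named below. Over all ABC genes 57 of 340 pairs with a neighbour up to 5 measured genes away (16.8%) were called, against 13.3% of all such neighbour pairs, with Abca5 and Abca8a counted from each side.

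Abcc9 codes for SUR2, the regulatory subunit of a potassium channel, and its neighbour on chromosome 6, Kcnj8, codes for the pore subunit Kir6.1. These partner subunits had r of 0.534 and 0.628 and were called. Abcc6 had 0 called genes among its 10 nearest neighbours (1 at an unadjusted p under 0.05 in both sets), against 5.81% of all genes called with it. With Kcnj11, the gene next to it, its r was 0.00679 and -0.0250. Abcd3 varied with Dpyd, a pyrimidine catabolism enzyme, with r of 0.558 and 0.545. Abca7, a relative of Abca1, was opposed to Gpx4, the lipid hydroperoxide reductase, with r of -0.490 and -0.422.

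Of the 50 genes of highest absolute r with Abcc6, 36 (72.0%) lay on chromosome 7, which holds 8.31% of all genes placed. For the 34 ABC genes the median of this count was 3.00 and the next highest was 7. The 36 genes lay 6 to 284 measured genes from Abcc6, 17 with positive and 19 with negative r. The 3 closest were Zfp30, a zinc finger gene, with r of 0.615 and 0.679, Nipa1, a magnesium transporter, with -0.612 and -0.681, and Nudt19, a peroxisomal CoA hydrolase, with -0.575 and -0.658. All 3 lie on chromosome 7, at 141, 32 and 94 measured genes from Abcc6. Of 894 other genes measured on chromosome 7, 88 (9.84%) were called with Abcc6, against 5.45% on other chromosomes. By distance the share was 11.0% up to 50 measured genes away, 21.0% from 51 to 100, 14.5% from 101 to 200, 6.44% from 201 to 400 and 1.89% beyond. In an F2 animal, genes on the same stretch of chromosome are inherited together, and genotypes were not used here. This count over chromosomes was added after the values were seen.

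**Figure D5:**
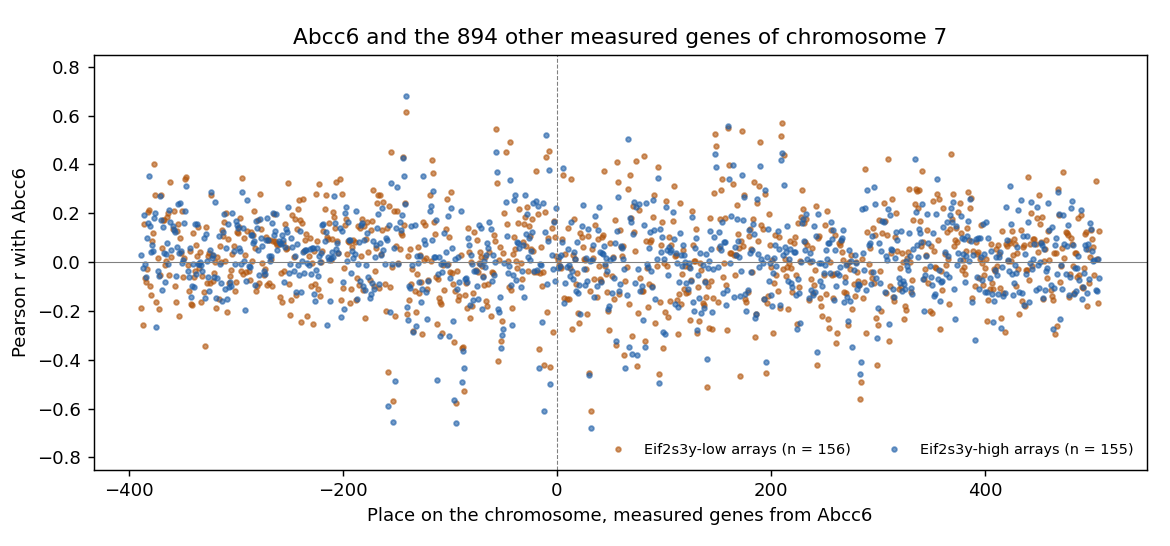
Pearson r with Abcc6 (vertical axis) of the 894 other measured genes of chromosome 7 against their place, counted in measured genes from Abcc6 (horizontal axis), in the 156 Eif2s3y-low and 155 Eif2s3y-high arrays. The largest positive and negative values lie within about 284 measured genes on either side, and most genes lie near 0.

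The ABC genes were then set beside genes of the pathways they serve, from fixed lists. Over all lists 507 of 3298 pairs of an ABC gene with a list gene were called (15.4%), against 10.7% of all gene pairs, with the heme enzyme Alas2 in 2 lists. The 10.7% covers pairs without an ABC gene too. With single ABC genes the share of all genes called ran from 2.57% (Abcb1b) to 22.0% (Abce1). The highest shares among the pathway lists were 112 of 510 (22.0%) for peroxisome genes and 90 of 476 (18.9%) for xenobiotic regulators and targets. Sterol and bile acid genes gave 55 of 306 (18.0%), translation factors 40 of 238 (16.8%), and mitochondrial heme and iron-sulfur genes 21 of 272 (7.72%).

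Among the peroxisome genes Abcd3 was called with 9 of 15 positively and 1 negatively, against 19.0% of all genes called with it. It varied with the peroxins Pex3 (r of 0.702 and 0.511), Pex7 (0.672 and 0.542) and Pex16 (0.570 and 0.584), which assemble the organelle, and with the beta-oxidation enzyme Ehhadh (0.692 and 0.449). Its negative partner was Pex6, a peroxin ATPase, with r of -0.425 and -0.262. The genes closest to Abcd3 outside the family were Edc4, an mRNA decapping scaffold, with r of -0.756 and -0.626, Fbxo8, an F-box gene, with 0.705 and 0.679, and the phosphatase gene Ppm1a, with 0.694 and 0.676. Abcg2 was called with 6 of the 15 positively and 1 negatively, against 8.69% of all genes. With Pex13 its r was 0.464 and 0.422.

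Abcd2, in the same organelle, was called with 3 of the 15, a share near its 14.2% of all genes. It was called positively with Pex11a, which drives peroxisome division (r of 0.40 and 0.501), and negatively with Pex2 (-0.472 and -0.342) and Pex3 (-0.243 and -0.217). Abcd2 and Abcd3 thus had Pex2 and Pex3 as partners of opposite sign, and their own r was 0.000311 and 0.00065. The genes closest to Abcd2 were Gm336, with r of 0.697 and 0.569, the receptor gene Notch1, with 0.715 and 0.543, and Efcc1, with 0.651 and 0.602. Of 14 xenobiotic genes Abcd2 was called with 2 positively and 2 negatively. The positive partners included Gclm, the modifier subunit of glutathione synthesis (0.710 and 0.305). Within the family Abcd2 varied with Abcc2 (0.375 and 0.468).

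Among the drug exporters, Abcb1a was called with 3 xenobiotic genes of 14 positively and 3 negatively, against 13.4% of all genes. It varied with Nfe2l2, the regulator of the oxidative stress response (r of 0.502 and 0.561), with the quinone reductase Nqo1 (0.209 and 0.549) and with Gsta2, a glutathione transferase (0.462 and 0.464). It was opposed to the uptake transporters Slco1a1 (-0.273 and -0.599) and Slc10a1 (-0.285 and -0.337) and to Gclm (-0.291 and -0.260). Its closest genes were the transcription factor gene Sox11, with r of -0.576 and -0.725, ALS2CR4, with 0.559 and 0.715, and Nagk, a sugar kinase, with 0.516 and 0.730. Abcb1b was called with 0 of the 14 (1 at an unadjusted p under 0.05 in both sets) and with 2.57% of all genes, the lowest share of the 34. Abcc3 was called with 3 of the 14 positively and 3 negatively, against 19.6% of all genes. Its positive partners were Nqo1 (0.234 and 0.372), Gclc (0.322 and 0.374) and Gsta2 (0.280 and 0.364). The negative partners included the uptake transporter Slco1b2 (-0.438 and -0.456). Its closest genes were Dab2ip, with r of 0.608 and 0.656, Pex11a, with 0.513 and 0.663, and Tmem134, with 0.579 and 0.605. Abcc2 and Abcc3, the apical and the basolateral conjugate pump, had r of 0.222 and 0.325 (adjusted p = 0.0290 and 0.000484). Abca8a was called with 4 of the 14 positively and 2 negatively, and with 2 of 3 hepatocyte genes positively, against 17.4% of all genes. These included Nqo1 (-0.478 and -0.574), Slco1b2 (0.491 and 0.592), Slco1a1 (0.339 and 0.735) and Hnf4a, the hepatocyte transcription factor (0.283 and 0.504). The closest genes of Abca8a were Klkb1, plasma prekallikrein, with r of 0.676 and 0.787, Cnmd, with 0.676 and 0.685, and Igfbp2, with 0.642 and 0.701.

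Among the sterol exporters, Abca1 was called with 3 of 9 sterol and bile acid genes, all negatively, against 16.9% of all genes called with it in either direction. They were Nr1h3, which codes for the oxysterol receptor LXR alpha (r of -0.379 and -0.334), Srebf2, the regulator of cholesterol synthesis (-0.438 and -0.434), and Insig1 (-0.209 and -0.303). The closest genes of Abca1 were Tmed2, a cargo receptor, with r of 0.825 and 0.797, Nr3c1, the glucocorticoid receptor, with 0.830 and 0.749, and Bmi1, a Polycomb gene, with 0.813 and 0.738. The Abca1 promoter is shown because LXR is known to bind a direct repeat there. It is the 250 bases before the start from RefSeq, at chr4:53159896-53160145 (GRCm38.p6, minus strand), with matches to the motifs above in capitals. The repeat GGTNANNNNNGGTNA was searched as well, on both strands.
Abca1: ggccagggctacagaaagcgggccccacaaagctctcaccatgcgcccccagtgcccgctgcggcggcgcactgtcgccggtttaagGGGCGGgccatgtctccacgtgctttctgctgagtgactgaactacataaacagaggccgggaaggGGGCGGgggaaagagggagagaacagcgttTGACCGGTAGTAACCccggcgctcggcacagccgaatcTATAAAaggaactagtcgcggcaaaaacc
The repeat matched on the opposite strand, 67 to 53 bases before the start, with 2 GC boxes and a TATA box 29 to 24 bases before the start. Promoters with this repeat were 0.621% of 32851, and of the 26 ABC genes with an entry 1 had it. Abcg1, Abcd2 and Abcc6 had no entry.

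Abcg1 varied with genes of macrophages. It was called with 20.9% of all genes, and of 9 macrophage genes with 7, all positively: Cd68 (r of 0.847 and 0.773), Lgmn (0.833 and 0.847), Ctss (0.787 and 0.826), Csf1r (0.564 and 0.642), Cd14 (0.417 and 0.445), Vsig4 (0.405 and 0.316) and Adgre1 (0.396 and 0.381). Clec4f, a lectin of Kupffer cells (0.168 and -0.0916), and Marco, a scavenger receptor (0.124 and -0.0759), were not called with it. Its closest genes were Slc15a3, a lysosomal transporter, with r of 0.849 and 0.862, Kcnk13, a potassium channel, with 0.854 and 0.857, and Trpv2, a cation channel, with 0.846 and 0.840. Abcg1 was also called with 5 of 6 stellate cell and matrix genes and 4 of 5 lymphocyte genes, all positively. With the oxysterol receptor gene Nr1h3 its r was 0.252 and 0.191, which was not called. The mean log ratio of the 9 macrophage genes ran from -0.232 over a median of 0.0166 to 0.316 in Eif2s3y-low arrays, and from -0.281 over -0.120 to 0.220 in Eif2s3y-high arrays. In whole liver RNA fewer cells of a type and less RNA per cell cannot be told apart, and the part of macrophage content in the Abcg1 values was not tested.

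Other ABC genes had partners among the same markers. Of the pairs of an ABC gene with a stellate cell or matrix gene 56 of 204 (27.5%) were called, and with a macrophage gene 60 of 306 (19.6%). Of all gene pairs 10.7% were called. Abcc5 and Abcc1 were called with 6 of 9 macrophage genes each, Abcg3 and Abcc9 with 5 and Abca9 with 4, all positively, and Abcb10 and Abca17 with 4 each, all negatively. Over all genes the shares called were 17.6% for Abcc5, 9.37% for Abcc1, 18.3% for Abcg3, 11.9% for Abcc9, 21.4% for Abca9, 17.8% for Abcb10 and 15.1% for Abca17. Abcc5 varied with Lgmn (r of 0.589 and 0.629) and Ctss (0.577 and 0.695). Abcg3 varied with Adgre1 (0.539 and 0.512) and with Hmox1, the heme-degrading enzyme (0.606 and 0.570). Abcb10 was opposed to Cd14 (-0.486 and -0.662) and Ctss (-0.445 and -0.648). Abcc9 and Abca9 were called with 5 of 6 matrix genes each, Abcc9 with Lum (0.487 and 0.468), Dcn (0.540 and 0.464) and Reln (0.621 and 0.409). Hepatocyte genes gave 20 of 102 (19.6%), lymphocyte 23 of 170 (13.5%), endothelium 24 of 238 (10.1%), cholangiocyte 6 of 102 (5.88%) and red cell genes 2 of 68 (2.94%). The lymphocyte and endothelium shares lay near the 10.7% of all gene pairs. Pancreas and skeletal muscle genes gave 0 of 170 each by Fisher's z (8 and 3 at an unadjusted p under 0.05 in both sets). When the 10 arrays on which such genes were 10-fold over the pool were left out, 70 pairs of ABC genes were called (10.5% of all pairs). The part of cell makeup in these pairs was not tested.

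The ribosome-linked members differed from each other. Abce1 was called with 3 of 7 translation factors positively, Eif2s2 (r of 0.608 and 0.547), Eif4e (0.563 and 0.469) and Eif5 (0.586 and 0.660), and with the stress kinase Eif2ak4 negatively (-0.414 and -0.399). It was called with 22.0% of all genes, the highest share of the 34. Its value comes from 1 of 2 probes, whose r with each other was only 0.383 and 0.435. Abcf1 was called with 1 of the 7 translation factors, Eif3b (0.219 and 0.285), against 8.04% of all genes. Abcf3 was called with 1 of the 7, Eif5 (0.385 and 0.405), against 16.2% of all genes. Abcf1 and Abcf3 were not called with each other (-0.0543 and 0.130). Abcg4, also read by 2 probes, had r between them of 0.246 and 0.162. Abcb10 was called with 1 of 8 heme and iron-sulfur genes, Alad, the enzyme of porphobilinogen synthesis (0.283 and 0.463). Abcg2, which can export porphyrins, was also called with 1 of these 8, against 8.69% of all genes. It was Alas2, the erythroid heme synthesis enzyme (0.633 and 0.379), which is in the red cell list too. The other red cell gene, Hbb-b1, was not called with Abcg2.

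Among the 4 excluded relatives, the sterol exporter genes Abcg5 and Abcg8 had called partners in subfamilies A, B and C. Abca8a varied with Abcg5 (r of 0.437 and 0.515) and Abcg8 (0.406 and 0.579), and Abca5 was opposed to both (-0.217 and -0.452, and -0.220 and -0.463). Abcg5 and Abcg8 were also called with Abcc10 (0.290 and 0.365, and 0.244 and 0.373), Abcg5 with Abcb10 (0.263 and 0.389) and Abca9 (-0.205 and -0.225), and Abcg8 with Abca1 (0.314 and 0.295) and Abca2 (0.325 and 0.257). The bile salt pump gene Abcb11 varied with Abcb10 (0.334 and 0.617) and Abca8b (0.524 and 0.263) and was opposed to Abcb1a (-0.336 and -0.481). It was also called with Abca2 (0.319 and 0.207), and negatively with Abca9 (-0.263 and -0.244), Abcc3 (-0.267 and -0.257), Abcg1 (-0.210 and -0.371) and Abcg3 (-0.248 and -0.275). The floppase gene Abcb4 was called with 1 of the 34, Abcc3 (0.496 and 0.414). All called pairs of the excluded relatives with the 34 genes are given here, and of all gene pairs 10.7% were called.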

How the data were processed

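Liver RNA of 311 F2 animals was measured on 2-colour arrays against a common pool, in 1 group. Per the labels, samples carried Cy3 and the pool Cy5. The values the authors deposited are log10 ratios limited to -2 and 2, of which 1990 lie at a limit, and their normalization is not given in the sources used here. Base and sign (sample over pool) were read from the slope of gene means on variances, -1.04, against -1.15 expected for log10 (-0.500 for natural log, -0.347 for log2). SD multiples and r do not depend on the sign. The F2 number was taken from the title, which differs from the source name in 1 sample. The descriptions and the design give different numbers of mice, and all 311 arrays were used.

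Of 23388 probes 13645 named 1 gene, 48 several and 9695 none. Symbols were updated through RefSeq (GRCm38.p6) by Entrez ID (12653), accession (4), symbol (214) or an earlier symbol (93). A further 681 probes stayed under the platform's name. The genes ABCA12 and ABCB5, kept in capitals, are outside the rule. Correlations were tested with Fisher's z and Benjamini-Hochberg adjustment over all gene pairs of each array set. The closest genes named are the 3 outside the family with the largest mean Fisher z for the 8 ABC genes of largest spread, and the pairs named in full are the 6 most positive and 4 most negative called. List genes and neighbours named were chosen after their values were seen. The members and lists were chosen with earlier results of these data known. The tests were first tested on simulated data. The work was done in Python (3.11.15) with the packages numpy (version 2.4.6), numba (version 0.67.0), pandas (version 2.3.3) and scipy (version 1.17.1), and figures were drawn in matplotlib (version 3.10.9). The number of arrays sets the precision.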

Additional observations from a re-analysis of the deposited data

How the results depend on the processing

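The alternatives were centring of arrays, other probe filters, the most variable probe, the lower and the higher F2 numbers (parted at the median), leaving out 10 arrays of largest spread or 10 of strong pancreas or muscle signal, a split on Kdm5d, limit values as missing, Spearman rho, removal of 5 components and other bounds. The pancreas and muscle setting and all settings for levels and lists were chosen after seeing the data. The 6 genes of large spread became 4 with probes on every array, 2 at a bound of 2 and 0 at a bound of 3. The 72 called pairs became 23 with probes on every array (19 of the 34 genes, with 14.1% of all pairs called), 18 and 29 in the animals up to and above the median F2 number, 15 with 5 components removed and 37 at an adjusted p under 0.01 (6.29% of all pairs). The 507 list pairs became 246, 161, 257 and 111 in the first 4 of these settings, and 341 at an adjusted p under 0.01. Of all pairs 14.1%, 3.00%, 4.69% and 1.46% were called in those 4 settings. The 3 genes with medians 1.5-fold apart became 1 with probes on every array. The slope behind the sign and base was -1.32 with values trimmed by 5% at each end. Within the array sets 0 ABC genes had a called mixture shape in each setting run. Of the 10 pairs named, Abca1 and Abcf3, Abca9 and Abcc9, and the 4 negative pairs were not called with 5 components removed, nor were Abcb10 and Abcg3, Abca9 and Abca13, and Abcd4 and Abcg2 in animals up to the median F2 number. No value changed sign. The cause of these changes was not tested, except that fewer genes or arrays enter the probe and F2 settings. No paired analysis was possible because all arrays form 1 group.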
